A study of Homo sapiens with 8 samples.

Results

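The genes described here are 10 members of the BCL2 family of apoptosis regulators. They were chosen by symbol among the 43869 genes of the deposited table, with each identifier matched to its name in GENCODE release 44, and all 10 were found. The BCL2 family decides at the mitochondrial membrane whether a stressed cell dies. Effectors, such as BAX and BAK1, open the outer membrane and release cytochrome c. Anti-apoptotic members, such as BCL2, BCL2L1 and MCL1, hold the effectors and their activators in check. BH3-only members, such as BCL2L11, BBC3, PMAIP1, BID and BMF, sense stress and either block the anti-apoptotic proteins or activate the effectors. In lung cancers driven by a mutant kinase, the BH3-only protein BIM, encoded by BCL2L11, is widely known as a mediator of cell death under kinase inhibitors.

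RNA-seq and H3K27ac ChIP-seq had been done in H3122 cells, a human non-small cell lung cancer line with an EML4-ALK fusion, either naive to treatment or with evolved resistance to an ALK inhibitor. The resistant lines were erCriz0 (evolved in 0.5 µM crizotinib), erAlec0 (2 µM alectinib) and erLor0 (2 µM lorlatinib), and each is a population from 1 gradual dose escalation of the same parental line, so a feature of the inhibitor and a feature of that single derivation cannot be told apart. Per the labels, cells for ChIP-seq were treated in DMSO. Per the study's methods, RNA was taken after a drug holiday. Each line gave 1 library per assay, so no difference below has a replicate check, no test was run and no p-value is given. All lines were compared with the same naive libraries, so the 3 comparisons are not independent of each other.

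Values are rlog values, log2 of normalized read counts drawn toward the mean of the gene or peak where reads are few, so that changes of low features are understated. Changes were taken as resistant minus naive rlog, and 1 equals a 2.0-fold difference. A gene counted as expressed if its rlog reached 4.64, the log2 of 25 reads, in at least 1 library, as did 12701 genes. All 10 members did so in each of the 4 libraries. The median level of expressed genes differed from that of naive by -0.055, -0.032 and -0.021 in the 3 resistant lines, and the depth of the libraries is unknown, because read totals cannot be recovered from rlog values. The carcinoma markers EPCAM, KRT7, KRT8, KRT18 and CDH1 lay between 11.38 and 15.17 in each library. Of the markers of other cells, PTPRC was listed at 0, CD3E, PECAM1 and PDGFRB were at most 2.20, COL3A1 is not in the table, and COL1A1 lay between 9.49 and 10.08. ALK, the fused kinase, was 8.18 in naive cells and 10.65, 9.58 and 8.10 in erCriz0, erAlec0 and erLor0.

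No member differed from naive by 1 or more in RNA in any resistant line. In erCriz0, 0 of 10 were up, where 2.65% of expressed genes were, and 0 were down, where 1.65% were. In erAlec0 the counts were again 0 up and 0 down, beside 2.46% and 2.07% of expressed genes, and in erLor0 they were 0 and 0, beside 1.10% and 0.740%. At these shares, under 1 of 10 genes would be past 1 in each line, so the counts of 0 do not set the members apart. In bulk RNA, fewer cells that use a gene and less RNA per cell cannot be told apart.

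At the lower limit of 1.5-fold, a change of 0.585, erCriz0 had 2 members up, PMAIP1 and MCL1, and 1 down, BBC3, where 7.56% of expressed genes were up and 8.52% down. erAlec0 had 2 up, BCL2L1 and MCL1, and 3 down, BCL2, BCL2L11 and BMF, beside 7.94% up and 8.00% down. erLor0 had 0 up and 0 down, beside 4.44% and 3.65%. The median change of the 10 members was -0.22, -0.06 and -0.05 in erCriz0, erAlec0 and erLor0, where the medians of all expressed genes were -0.02, 0.00 and 0.00. By role, the 3 anti-apoptotic genes had median changes of -0.11, 0.62 and 0.29 in erCriz0, erAlec0 and erLor0. The medians in erAlec0 and erLor0 are the values of MCL1, which quantile normalization took to 0.27 and 0.02, and BCL2 changed by -0.90 in erAlec0 where BCL2L1 changed by 0.73. The 2 effectors had -0.34, -0.02 and 0.01, and the 5 BH3-only genes had -0.23, -0.15 and -0.08.

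**Figure D1:**
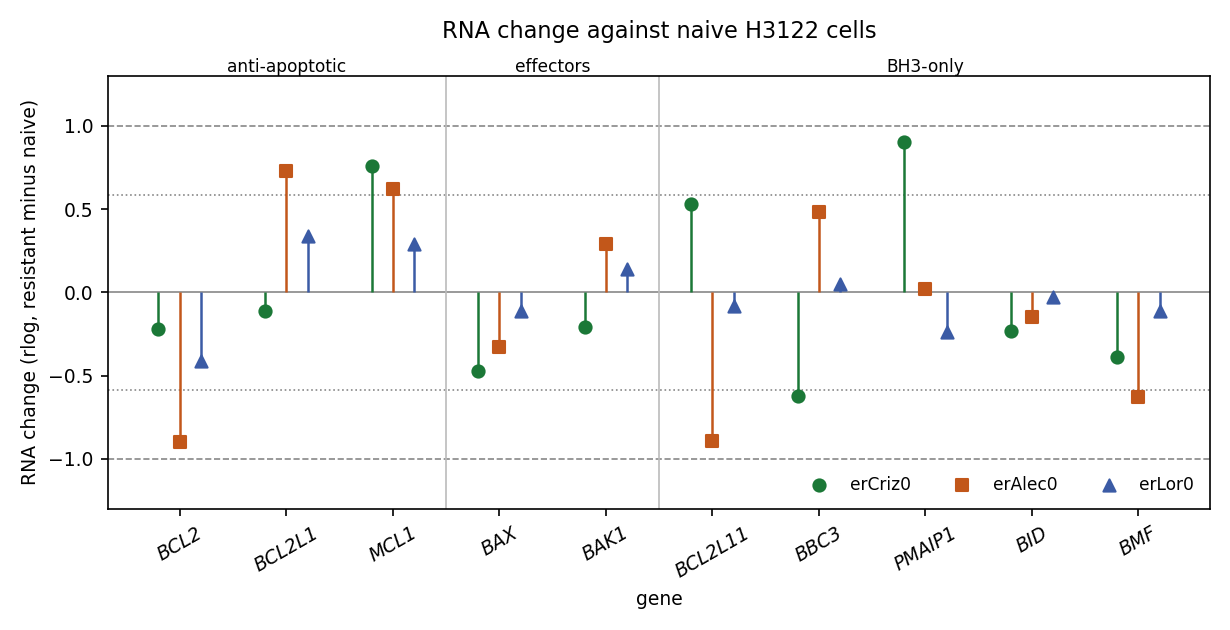
RNA change of each BCL2 family gene (y axis, rlog of the resistant line minus rlog of naive, 1 library each) in erCriz0 (circles), erAlec0 (squares) and erLor0 (triangles), with dashed lines at 1 and -1 and dotted lines at 1.5-fold. No point reaches a dashed line; the farthest are PMAIP1 in erCriz0 at 0.90 and BCL2 in erAlec0 at -0.90, and no erLor0 point passes a dotted line.

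For 3 members, all BH3-only, resistant lines differed from each other by 1 or more, which no line did from naive. Below 1, BCL2L1 and BAK1 also differed more between resistant lines than from naive. Their values, erCriz0 minus erAlec0, were -0.84 and -0.50. The comparison between resistant lines was added after the values had been seen. Between erCriz0 and erAlec0, 2 of 10 members differed by 1 or more, beside 5.90% of expressed genes. The difference, erCriz0 minus erAlec0, was 1.43 for BCL2L11 and -1.10 for BBC3. Between erCriz0 and erLor0, 1 member did, PMAIP1 with 1.14 more in erCriz0, beside 5.37%. Between erAlec0 and erLor0 none did, beside 1.23%.

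Levels of the family spanned a wide range, and the order of its ends held in each library. Per kilobase of exon, on the log2 scale, the naive level was 11.69 for MCL1, 8.91 for BMF, 7.72 for BCL2L1, 7.29 for PMAIP1, 7.15 for BID, 6.33 for BAX, 5.75 for BCL2L11, 5.57 for BAK1, 4.69 for BBC3 and 1.93 for BCL2. MCL1 ranked first and BCL2 last in all 4 libraries. BMF ranked second in naive, erCriz0 and erLor0 and behind MCL1 and BCL2L1 in erAlec0, where BCL2L1 had 8.45 and BMF 8.28. BCL2L11 ranked seventh in naive cells, sixth in erCriz0, ninth in erAlec0 and eighth in erLor0. With 1 library per line, it cannot be said which neighbours in this order differ beyond their spread. The naive rlog of MCL1 was above that of 99.8% of expressed genes, and that of BCL2 above 13.3%.

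**Figure D2:**
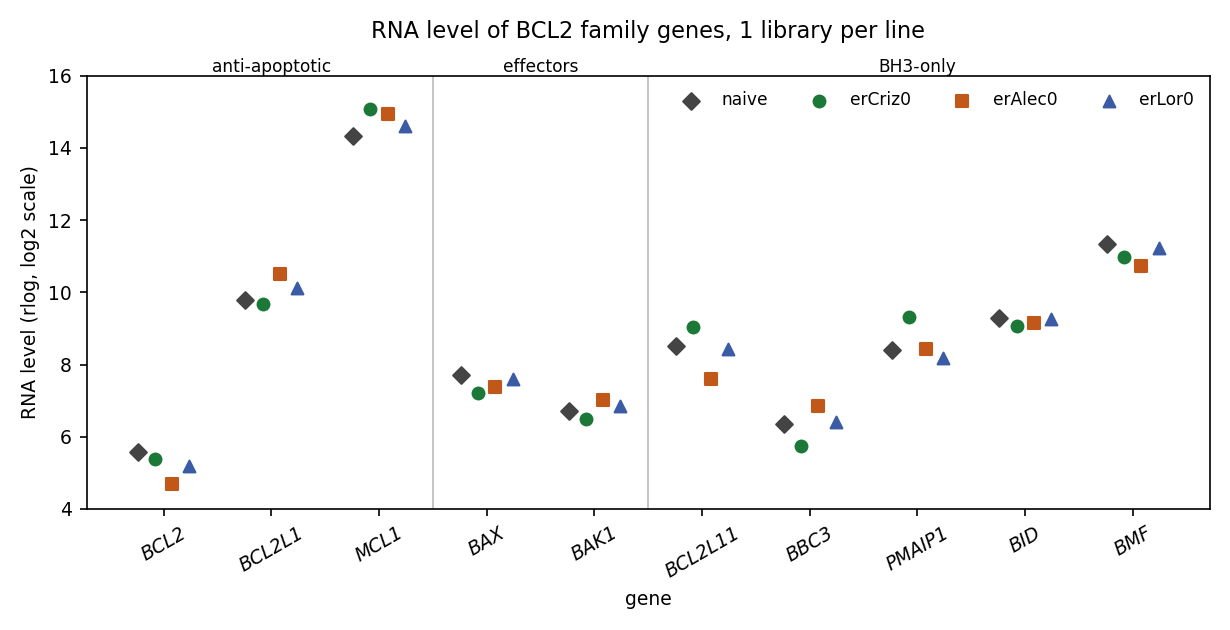
RNA level (y axis, rlog, log2 scale, not divided by gene length) of each BCL2 family gene in the single library of naive (diamonds), erCriz0 (circles), erAlec0 (squares) and erLor0 (triangles) cells. MCL1 lies between 14.32 and 15.08 and BCL2 between 4.70 and 5.59, while the points of BID span only 0.23.

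H3K27ac, an acetyl mark on histone H3 that is found at active promoters and enhancers, was examined in peaks at most 20 kb from a gene. The members had 117 such peaks among 126470 in all, from 3 at BID to 21 at BBC3, and no peak was paired with more than 1 member. Only 11 of the 117 were paired with a single gene of any kind, so most could also belong to neighbours. In erCriz0, 9 of the 117 (7.69%) were up by 1 or more, beside 7.00% of all peaks, and 10 (8.55%) were down, beside 5.94%. In erAlec0, 1 peak (0.855%) was up, beside 14.1%, and 15 (12.8%) were down, beside 9.41%. In erLor0, 11 (9.40%) were up, beside 7.45%, and 6 (5.13%) were down, beside 8.82%. The median change of member peaks was -0.27, -0.44 and -0.24 in the 3 lines, where that of all peaks was 0.00 in each. In erCriz0 the median was 0.19 over the 11 peaks paired with 1 gene. The 27 member peaks of at least 2000 bp had medians of 0.18, -0.25 and -0.08, beside 0.25, 0.11 and 0.23 for all such peaks. The 77 peaks under 1000 bp had -0.41, -0.48 and -0.40, beside -0.11, -0.03 and -0.09. Peaks at 1 gene share a locus and are not independent, so the loci are described one by one.

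BCL2 (ENSG00000171791.13, chr18:63123346-63320128, minus strand) encodes the founding anti-apoptotic member. Its RNA was 5.59 in naive cells and 5.37, 4.70 and 5.18 in erCriz0, erAlec0 and erLor0. The lowest level was in erAlec0, at 0.538 times naive, and 6.15% of expressed genes changed by as much there. This level is close to 4.64, the limit for an expressed gene. In erCriz0 and erLor0, where RNA changed less, 55.9% and 16.3% of expressed genes changed by as much as BCL2. Against naive, the H3K27ac peaks of this locus were mostly higher in the resistant lines, where its RNA was lower. Among the resistant lines, erAlec0 had the lowest RNA and also the smallest median peak change. All 9 peaks were higher in erCriz0 (median change 1.13), 7 of 9 in erAlec0 (0.65) and 8 of 9 in erLor0 (1.31), and 6, 1 and 6 of them were up by 1 or more. Other peaks within 5 Mb, 271 in number, had medians of 0.35, 0.17 and 0.11.

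The BCL2 peak nearest the transcription start, 97 bp inside the gene (chr18:63319393-63320031), had an H3K27ac rlog of 3.69 in naive cells and 4.78, 4.39 and 5.13 in erCriz0, erAlec0 and erLor0. It was lowest in naive cells, where it lay below 3.91, the log2 of 15 reads. The largest change of the family was in the BCL2 intron at chr18:63263548-63264301, where the rlog was 2.79, 3.45, 4.45 and 4.82 in the same order. That peak, paired with BCL2 alone, was 2.03 higher in erLor0 than in naive cells and is low on the scale. A peak over a BCL2 exon at chr18:63161115-63162083 went apart between lines, with 3.57 in naive cells and 5.06, 2.63 and 2.93 in erCriz0, erAlec0 and erLor0. Only in erCriz0 was this peak above 3.91. KDSR, which shares the peaks at the BCL2 start, changed by 0.65, -0.24 and -0.13 in RNA.

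BCL2L1 (ENSG00000171552.13, chr20:31664452-31723989, minus strand) encodes BCL-xL, an anti-apoptotic protein. RNA was 9.79 in naive cells and 9.68, 10.52 and 10.13 in erCriz0, erAlec0 and erLor0. Only erCriz0 was not above naive, and erAlec0, at 1.66-fold, was highest. Of 18 peaks, 17 were lower in erCriz0 (median -0.43), while 8 of 18 were lower in erAlec0 (median 0.05) and 8 in erLor0 (0.04). An intronic BCL2L1 peak of 6403 bp (chr20:31677354-31683756) had 8.69 in naive cells and 7.65, 9.49 and 9.27 in erCriz0, erAlec0 and erLor0. It was thus the lowest in erCriz0 and the highest in erAlec0, the order its RNA has too. The BCL2L1 start lies in a peak of 30801 bp, of which only 60 of 126470 were wider, and that peak changed by -0.16, 0.17 and 0.23. It was also paired with TPX2, a mitotic spindle gene with RNA changes of -0.65, -1.0 and -0.75. The largest BCL2L1 peak change, -1.16 in erCriz0, was in a low peak downstream of the gene (chr20:31659762-31660031).

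MCL1 (ENSG00000143384.13, chr1:150574551-150579738, minus strand) encodes a short-lived anti-apoptotic protein. RNA was 14.32 in naive cells and 15.08, 14.94 and 14.62 in erCriz0, erAlec0 and erLor0. Naive cells had the lowest level, and the folds were 1.69, 1.53 and 1.22. Few genes lie this high on the scale, and quantile normalization of the libraries left 0.65, 0.27 and 0.02 of these changes, so that only the difference in erCriz0 stayed past 1.5-fold. The peak over the MCL1 start (chr1:150574407-150583544, 9138 bp) was nearly level, with an rlog of 12.50, 12.56, 12.48 and 12.42. Of the 13 MCL1 peaks, 11, 12 and 11 were lower in erCriz0, erAlec0 and erLor0, with medians of -0.77, -0.41 and -0.44 beside -0.32, 0.00 and -0.08 for 1099 other peaks within 5 Mb. Within 5 kb of MCL1 the medians in erCriz0 and erAlec0 were 0.04 and 0.02. The largest change, -1.22 in erCriz0, was 18366 bp upstream (chr1:150598105-150598834), a peak also paired with ENSA. ADAMTSL4, which shares 5 MCL1 peaks, was higher in RNA by 1.28, 1.36 and 0.80.

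BAX (ENSG00000087088.20, chr19:48954815-48961798, plus strand) encodes a pore-forming effector. RNA was 7.70 in naive cells and 7.22, 7.37 and 7.59 in erCriz0, erAlec0 and erLor0, with the highest level in naive cells and a largest difference of 0.720-fold. The peak over its start (chr19:48954211-48956677) was 7.27, 7.79, 7.42 and 7.98 in the same order and was lowest in naive cells. The largest BAX peak change was downstream (chr19:48967910-48970086), at -1.25, -1.20 and -0.97, in a peak that FTL shares. FTL, a ferritin subunit gene, had RNA changes of -0.67, -0.65 and 0.09.

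The 250 bases upstream of the RefSeq start of BAX (GRCh38.p14, chr19:48954625-48954874, plus strand) lie wholly in its start peak and are shown because they hold 4 copies of the MYC-type E-box CACGTG, which 6.34% of 35116 such windows hold at least once. The share of windows with 4 copies was not counted. Capitals mark the E-boxes and 1 GC box, GGGCGG.
BAX: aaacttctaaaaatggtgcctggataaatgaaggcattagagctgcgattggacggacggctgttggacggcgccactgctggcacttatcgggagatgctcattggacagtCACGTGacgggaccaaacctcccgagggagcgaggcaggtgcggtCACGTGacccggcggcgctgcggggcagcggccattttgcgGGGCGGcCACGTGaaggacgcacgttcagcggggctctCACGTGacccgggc

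BAK1 (ENSG00000030110.13, chr6:33572547-33580293, minus strand), the other effector, had RNA values of 6.72 in naive cells and 6.50, 7.01 and 6.85 in erCriz0, erAlec0 and erLor0. Its RNA was highest in erAlec0, by 1.22-fold, and 42.5% of expressed genes changed by as much there. All 13 of its peaks were lower in that line, 4 of them by 1 or more. The median was -0.92 in erAlec0, beside 0.04 for 870 other peaks within 5 Mb, and -0.30 and -0.49 in erCriz0 and erLor0, beside -0.28 and 0.05. The BAK1 start peak (chr6:33575696-33580680) had 9.44, 9.62, 8.78 and 9.31 in naive, erCriz0, erAlec0 and erLor0. The largest change was 17354 bp upstream (chr6:33597648-33601008), where the values were 7.75, 8.44, 6.29 and 6.77, higher than naive in erCriz0 and lower in the other lines. That peak was also paired with ITPR3, an inositol trisphosphate receptor gene with RNA changes of 0.03, 0.53 and 0.44.

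BCL2L11 (ENSG00000153094.23, chr2:111119378-111168445, plus strand) encodes BIM. RNA was 8.51 in naive cells and 9.04, 7.61 and 8.42 in erCriz0, erAlec0 and erLor0. erCriz0 was highest, at 1.45-fold over naive, and erAlec0 lowest, at 0.538-fold, and 6.18% of expressed genes changed as much as in erAlec0. The whole gene is overlapped on the opposite strand by the RNA gene MIR4435-2HG, which had 7.69 in naive cells and changed by 0.19, 0.22 and -0.20. The study's methods name a check of strand with RseQC but not the setting used for counting, so reads of these 2 genes may not be separated.

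An H3K27ac peak 17343 bp upstream of BCL2L11 (chr2:111099339-111102034) had 6.00 in naive cells and 7.77, 5.23 and 5.22 in erCriz0, erAlec0 and erLor0. It was higher than naive only in erCriz0, by 1.77. The peak was also paired with ACOXL, whose RNA changed by -0.04, 1.08 and 1.17. In erLor0 the gene body rather than this peak was higher. The median over 11 BCL2L11 peaks was 0.91 in erLor0, with 4 up by 1 or more, beside 0.01 for 496 other peaks within 5 Mb, while RNA changed by -0.08. The medians were 0.03 in erCriz0 and 0.14 in erAlec0. The start peak (chr2:111117244-111122566) had 8.93, 9.30, 9.03 and 9.92 in naive, erCriz0, erAlec0 and erLor0.

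The 250 bases upstream of the RefSeq start of BCL2L11 (GRCh38.p14, chr2:111120664-111120913, plus strand) lie within that start peak and are shown because BCL2L11 is a textbook target of FOXO factors. They hold 1 FOXO match, GTAAACA, and 3 GC boxes, all in capitals. A FOXO match is in 2.98% of such windows and a GC box in 42.6%.
BCL2L11: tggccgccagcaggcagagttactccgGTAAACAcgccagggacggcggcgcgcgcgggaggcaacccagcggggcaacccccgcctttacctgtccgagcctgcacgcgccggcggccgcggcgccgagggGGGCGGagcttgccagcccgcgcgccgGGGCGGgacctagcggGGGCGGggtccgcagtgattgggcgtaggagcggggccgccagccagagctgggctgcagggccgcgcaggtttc

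BBC3 (ENSG00000105327.17, chr19:47220822-47232766, minus strand) encodes PUMA, a BH3-only protein that FOXO factors can induce. RNA was 6.36 in naive cells and 5.74, 6.84 and 6.42 in erCriz0, erAlec0 and erLor0. It was thus lowest in erCriz0, at 0.650-fold, and highest in erAlec0, at 1.40-fold, the reverse of the order of BCL2L11 in these lines. Its 21 peaks did not have this order. The medians were -0.42, -0.68 and -0.41 in erCriz0, erAlec0 and erLor0, and 19 of 21 were lower in erAlec0, 5 of them by 1 or more. Other peaks within 5 Mb had medians of 0.00, -0.34 and 0.01. The BBC3 start peak (chr19:47231316-47233333) had 8.00, 8.19, 7.32 and 7.78 in naive, erCriz0, erAlec0 and erLor0. The largest change was 2601 bp upstream (chr19:47235368-47235802), with 4.36, 3.22, 2.84 and 3.36, highest in naive cells.

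The first 151 of the 250 bases upstream of the RefSeq start of BBC3 (GRCh38.p14, chr19:47232767-47232917, minus strand) are outside annotated UTRs and are shown because BBC3 was the only member with an AP-1 match, TGANTCA, a sequence in 6.57% of windows. Capitals mark this match, TGAGTCA, and 1 E-box, CACGTG.
BBC3: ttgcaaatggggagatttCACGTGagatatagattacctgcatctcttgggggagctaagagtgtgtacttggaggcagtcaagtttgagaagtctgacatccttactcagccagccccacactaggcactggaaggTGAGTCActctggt

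PMAIP1 (ENSG00000141682.11, chr18:59899948-59904306, plus strand) encodes NOXA, a BH3-only protein that binds MCL1. RNA was 8.41 in naive cells and 9.32, 8.44 and 8.18 in erCriz0, erAlec0 and erLor0. erCriz0 stood above the others, at 1.87-fold over naive, and 5.87% of expressed genes changed as much. In the same line the 4 PMAIP1 peaks upstream of, over and inside the gene were higher. The peak over the start (chr18:59898916-59902813) had 7.95 in naive cells and 8.77, 8.03 and 8.32 in erCriz0, erAlec0 and erLor0. The peak 15401 bp upstream (chr18:59879905-59884546) had 7.77, 8.85, 6.94 and 7.50, and both were paired with PMAIP1 alone.

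Of the peaks downstream of PMAIP1, those from 5 to 15 kb after the start were lower than naive in each line. The largest change was at chr18:59907831-59910420, with 7.73 in naive cells and 7.58, 5.84 and 6.51 in erCriz0, erAlec0 and erLor0. The change was -1.89 in erAlec0, where PMAIP1 RNA differed from naive by 0.02. Over all 15 PMAIP1 peaks the medians were -0.34, -0.75 and -0.63, beside 0.23, 0.32 and 0.28 for 352 other peaks within 5 Mb, and 4 and 5 peaks were down by 1 or more in erAlec0 and erLor0. In erCriz0 the median was 0.52 over the peaks that reach the log2 of 15 reads in at least 1 library and 0.87 over the peaks paired with PMAIP1 alone.

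The 250 bases upstream of the RefSeq start of PMAIP1 (GRCh38.p14, chr18:59899746-59899995, plus strand) lie within the start peak and are shown because this peak and the RNA were both highest in erCriz0. Capitals mark 4 GC boxes, GGGCGG or its complement CCGCCC; no FOXO, AP-1, E-box, CRE (TGACGTCA), CHOP-ATF4 (TGATGNAA) or STAT (TTCNNNGAA) match was found.
PMAIP1: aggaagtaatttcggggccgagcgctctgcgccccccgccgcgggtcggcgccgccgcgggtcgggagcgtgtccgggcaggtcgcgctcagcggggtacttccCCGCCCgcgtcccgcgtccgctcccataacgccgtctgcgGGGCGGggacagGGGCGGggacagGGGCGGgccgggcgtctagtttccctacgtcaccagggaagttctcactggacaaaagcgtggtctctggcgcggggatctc

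BID (ENSG00000015475.18, chr22:17734138-17774770, minus strand), which caspase-8 cleaves to link death receptors to mitochondria, was the steadiest member. RNA was 9.29, 9.06, 9.15 and 9.26 in naive, erCriz0, erAlec0 and erLor0. It has 3 peaks. The one at its start (chr22:17771645-17774503) had 7.76, 8.28, 8.26 and 7.73, higher than naive in erCriz0 and erAlec0, and the largest change, -0.93 in erCriz0, was in an intron (chr22:17769412-17769865).

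BMF (ENSG00000104081.14, chr15:40087890-40108892, minus strand) encodes a BH3-only protein held at the cytoskeleton. RNA was 11.35 in naive cells and 10.97, 10.73 and 11.24 in erCriz0, erAlec0 and erLor0, lowest in erAlec0 at 0.648-fold. BMF lies in a peak of 67989 bp (chr15:40043877-40111865), of which only 5 of 126470 were wider and the median width is 522 bp. That peak had 14.60, 14.89, 14.95 and 14.82 and was lowest in naive cells, where BMF RNA was highest. Its changes of 0.29, 0.35 and 0.22 were below the median absolute changes of all peaks, 0.441, 0.575 and 0.489. The peak was also paired with SRP14 and EIF2AK4. The largest BMF peak change was -0.96 in erCriz0 (chr15:40112764-40113049).

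**Figure D3:**
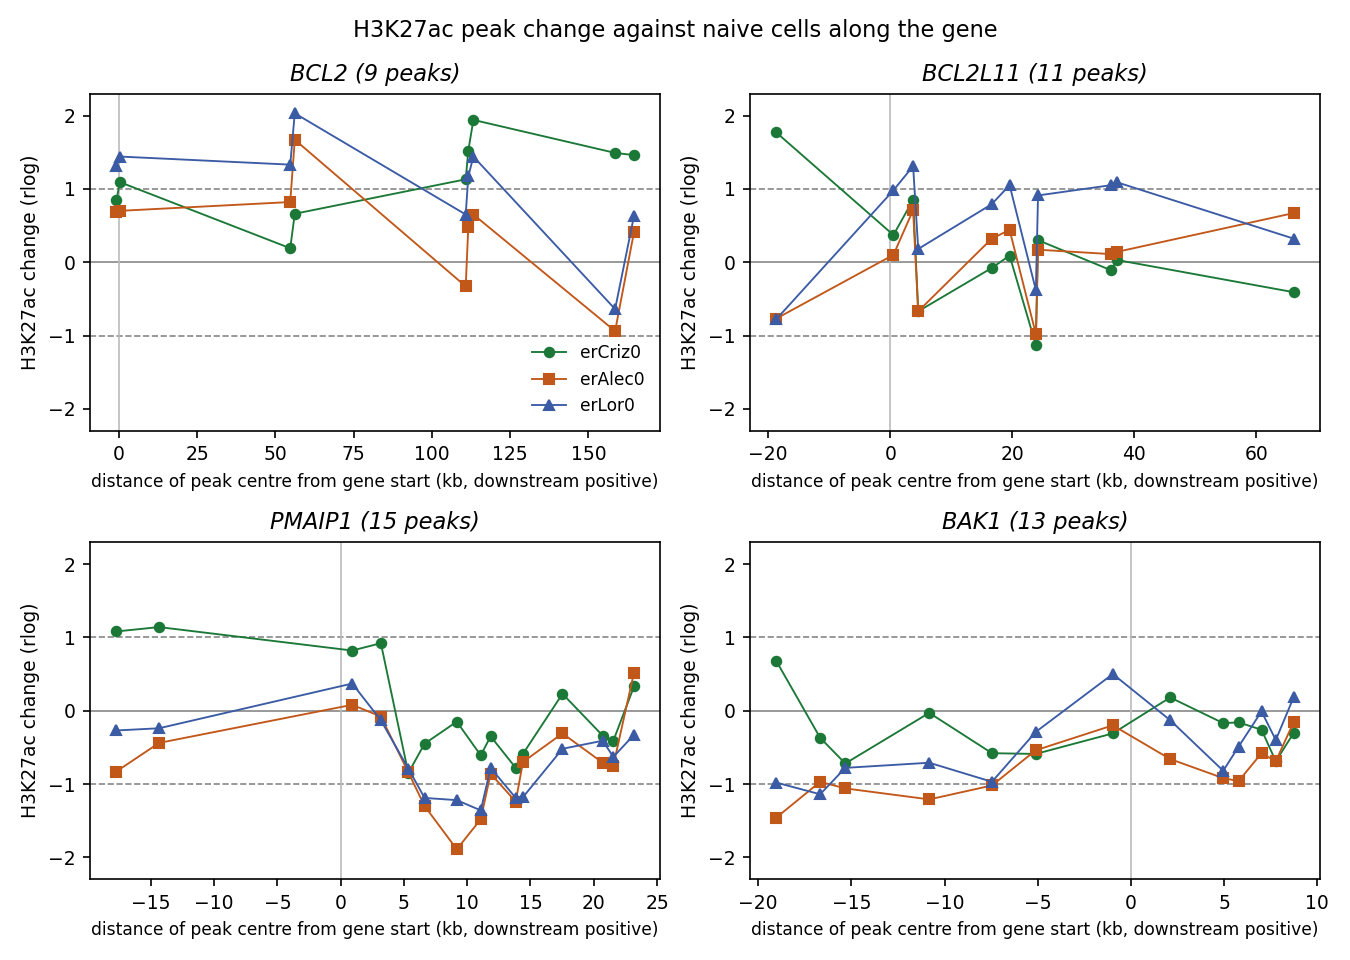
H3K27ac change of each peak (y axis, rlog of the resistant line minus naive, dashed lines at 1 and -1) against the distance of its centre from the gene start in kb (x axis, downstream positive) at BCL2, BCL2L11, PMAIP1 and BAK1, for erCriz0 (circles), erAlec0 (squares) and erLor0 (triangles), with lines joining the peaks of 1 library. The BCL2 points lie mostly above 0, 4 of the 11 erLor0 points along BCL2L11 lie above 1, all PMAIP1 points from 5 to 15 kb downstream lie below 0, and all 13 erAlec0 points of BAK1 lie below 0.

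Changes in RNA and in acetylation at the start often had opposite signs. The change of the peak nearest the start had the sign of the RNA change for 4, 2 and 2 of the 10 members in erCriz0, erAlec0 and erLor0. Among all expressed genes the share was 51.3%, 51.0% and 51.0%. Some of the members' signs rest on changes near 0, such as those of BBC3 in erLor0, 0.05 in RNA and -0.22 at its start peak. PMAIP1 and BCL2L11 were higher in both measures in erCriz0, whereas BCL2 was higher at its start by 1.09, 0.70 and 1.44 in the lines where its RNA changed by -0.22, -0.90 and -0.41.

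**Figure D4:**
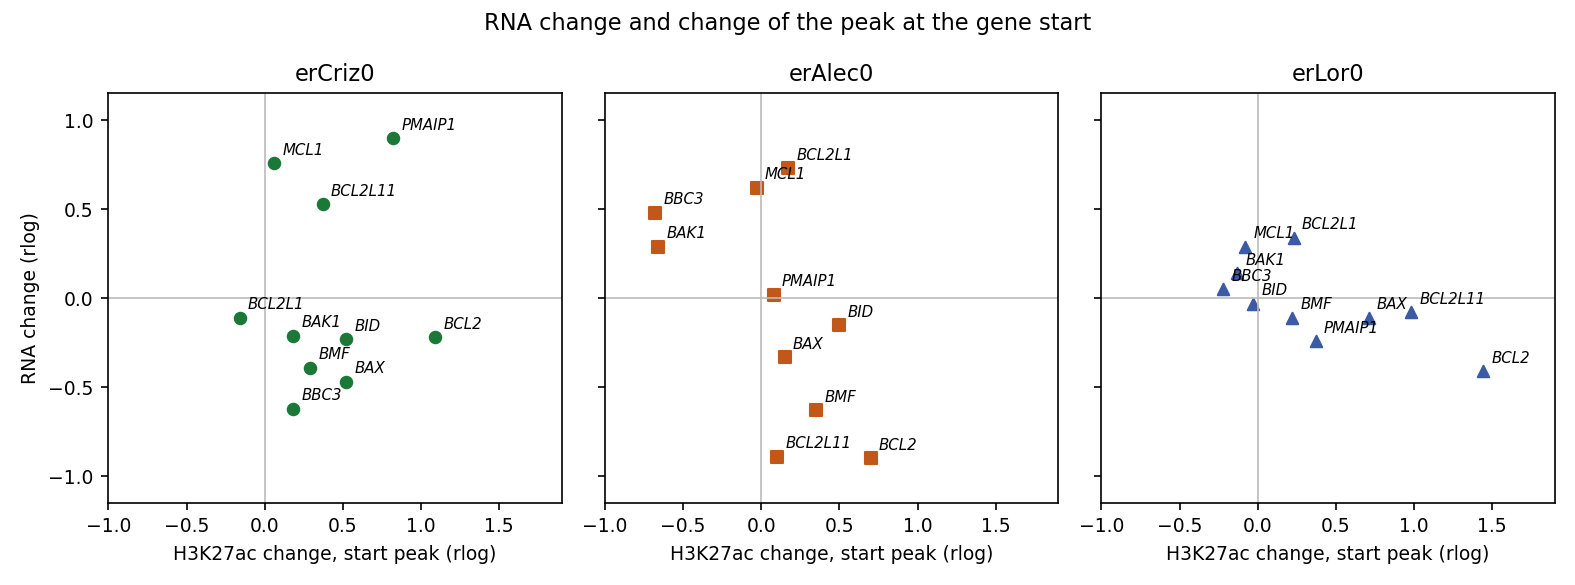
RNA change (y axis, rlog) against the H3K27ac change of the peak nearest the gene start (x axis, rlog) for the 10 BCL2 family genes in erCriz0, erAlec0 and erLor0, each resistant line minus naive, 1 point per gene. Points with both changes of 1 sign, in the upper right and lower left, number 4, 2 and 2, and BCL2 lies at the lower right in each panel.

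Other genes of the apoptosis pathway were taken from 5 lists. Of 53 further genes, 52 were in the table, all but BCL2A1, and 45 were expressed. Past 1 there were 0 up and 1 down in erCriz0, 0 up and 1 down in erAlec0, and 0 and 0 in erLor0, beside 2.65% and 1.65%, 2.46% and 2.07%, and 1.10% and 0.740% of all expressed genes. At 1.5-fold there were 4 up and 7 down, 5 up and 3 down, and 2 up and 1 down, beside 7.56% and 8.52%, 7.94% and 8.00%, and 4.44% and 3.65%. These shares come to under 5 genes of 45 in each direction, and most of the counts lie near them. Among 8 other expressed BCL2 family genes the median changes were -0.26, 0.16 and 0.18. BOK, a relative of BAX and BAK1, had 8.58 in naive and changed by -1.03, -0.33 and 0.02 in erCriz0, erAlec0 and erLor0. HRK, a BH3-only gene, changed by 0.22, 0.30 and 0.69.

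For the 7 genes of caspases and the apoptosome, the medians were 0.18, -0.28 and -0.08. APAF1, the apoptosome scaffold, changed by 0.18, -0.59 and -0.23 in erCriz0, erAlec0 and erLor0, and CASP2 by -0.30, -0.57 and -0.50. The 7 expressed genes of caspase inhibitors (IAPs) and their antagonists had medians of 0.23, -0.05 and -0.02. BIRC5, which encodes survivin and is also a mitotic gene, changed by -0.67, -0.82 and -0.32, and BIRC3 changed by 0.45, -0.51 and -0.30.

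The 9 expressed genes of the death receptor pathway had medians of 0.30, 0.17 and 0.11. CASP10 was higher by 0.41, 0.81 and 0.87, and CFLAR, whose product blocks caspase-8, by 0.31, 0.73 and 0.36. The 14 upstream regulators had medians of 0.09, 0.19 and 0.10. TP73, a transcription factor gene, had 6.32 in naive cells and was lower in each resistant line. It changed by -0.92, -1.36 and -0.61 in erCriz0, erAlec0 and erLor0. FOXO1, a factor that activates BCL2L11, was higher by 0.99, 0.59 and 0.49.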

How the data were processed

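The authors deposited 1 table that pairs each H3K27ac peak with the genes within 20 kb, in which the values of the 4 libraries per assay are on a log2 scale (rlog). Per the study's methods, the authors aligned RNA reads to hg38 with HISAT2, counted them with HTSeq-count, aligned ChIP reads with BWA, ran MACS2 for peaks, joined those of 4 samples with bedtools, counted reads with featureCounts and applied the rlog function of DESeq2. Tool versions and subtraction of input are not given in the sources used here. The deposited correlations of peak and gene values with their p-values were not used. Of 8 labelled samples, 4 have no column and were not analysed here.

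From these values, changes from naive were computed and counted at 1, the limit in the study's methods, and at 1.5-fold. No test was run, as each line has 1 library per assay. Level per kilobase is rlog minus log2 of the exon length in GENCODE release 44. Of the 10 members, 7 had the same coordinates there as in the table, whose coordinates are printed. A start peak is the peak nearest the gene start, and it covered the start for 8 of 10 members. The members and lists were chosen with earlier results of these data known. Named were all members, for each the start peak and the peak of largest change, and from each other list the genes past 1 and the 2 of largest change. Other peaks, genes that share a peak or overlap a member, and the sequences shown were picked after their values were seen.

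Promoter windows (250 bases before each start) came from RefSeq, GRCh38.p14, for 9 of 10 members in 15 windows. MCL1 had none. Motifs were searched on both strands as exact letters, and those printed do not overlap. No member window held a STAT, CRE or CHOP-ATF4 match, which 6.57%, 1.65% and 3.14% of 35116 windows hold, 1 member had a FOXO match, 1 an AP-1 match, 3 an E-box (BAX, BBC3 and BID) and 6 a GC box. A match is a description of letters, not a binding site.

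Alternatives were centring, quantile normalization, other limits, filters on low features, pairs at most 5 kb apart, peaks paired with 1 gene, and changes relative to other peaks within 5 Mb. Scaling of the comparison between resistant lines was added after seeing the data. A short self-test planted changes well past the limit of 1, so that finding them was set in advance, and checked the joining of exon lengths. The counts, the alternatives and the motif search were not tested on simulated data. Python 3.11.15, numpy 2.4.6, pandas 2.3.3 and matplotlib 3.10.9 were used.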

Additional observations from a re-analysis of the deposited data

Results flagged for a closer look

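Differences between resistant lines of at least 1 in RNA, or 2 in H3K27ac, are listed here where the lines lie on opposite sides of naive. With 1 library per line, none of these differences was tested.

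In RNA, BCL2L11 differed by 1.43 between erCriz0 (0.53 above naive) and erAlec0 (0.89 below, a change of -0.89). BBC3 differed by -1.10 between the same lines, with changes of -0.62 and 0.48. PMAIP1 differed by 1.14 between erCriz0 and erLor0, with changes of 0.90 and -0.24.

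In H3K27ac, the BCL2L11 peak at chr2:111099339-111102034 was 2.54 higher in erCriz0 than in erAlec0 and 2.55 higher than in erLor0. The BCL2 peak at chr18:63161115-63162083 was 2.43 higher in erCriz0 than in erAlec0 and 2.13 higher than in erLor0. In naive, erAlec0 and erLor0 cells this BCL2 peak lay below 3.91, the log2 of 15 reads. The BAK1 peak at chr6:33597648-33601008 was 2.14 higher in erCriz0 than in erAlec0. ALK RNA was also highest in erCriz0, with changes from naive of 2.47, 1.40 and -0.08 in erCriz0, erAlec0 and erLor0. The part of ALK in the differences listed here was not tested.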

How the results depend on the processing

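Of 342 values under other settings, 303 stayed within 1.5 times for counts or, for changes, within the median absolute change of all features in that line (0.257, 0.243 and 0.173 in RNA and 0.441, 0.575 and 0.489 in H3K27ac for erCriz0, erAlec0 and erLor0). Medians changed sign in 10 cases, 5 of them by more than this, all in erCriz0: that of all member peaks from -0.27 to 0.19 over peaks paired with 1 gene, that of MCL1 from -0.77 to 0.04 within 5 kb, that of BMF from -0.36 to 0.09 among peaks that reach 15 reads, and that of PMAIP1 from -0.34 to 0.52 among those and to 0.87 over peaks paired with 1 gene. The main medians over all members and over all member peaks were smaller than these margins in each line. Such a median could fall to 0 and still count as unmoved. Some of the 303 values could not have moved. With no member past 1 in RNA, none could be past 2. All 10 members reached the expression limit in each library, so leaving it out or asking it of all 4 libraries changed nothing. Centring removes only a line's median shift from naive, of which the largest were -0.055 in RNA and -0.1 in H3K27ac. These are below the median absolute changes above, so centring could not move a change past them. Quantile normalization left RNA changes of MCL1 of 0.27 in erAlec0 and 0.02 in erLor0. No library could be left out, as each line has 1, and no paired analysis was possible because the lines share no 2 replicate numbers. In RNA, a limit of 1.5-fold gave 2 and 2 members up and 1 and 3 down in erCriz0 and erAlec0. Member peaks moved more. At 1.5-fold, 17, 8 and 17 were up and 36, 45 and 33 of 117 down in the 3 lines, beside 18.4%, 25.9% and 19.7% of all peaks up and 18.7%, 23.4% and 22.2% down. At a limit of 2, 0, 0 and 1 were up and 0, 0 and 0 down, beside 0.391%, 2.03% and 0.386%, and 0.0743%, 0.291% and 0.308%. Within 5 kb, 4, 6 and 2 of 69 were down, beside 5.74%, 9.15% and 8.47%, and 6, 1 and 11 were up, beside 6.83%, 13.8% and 7.42%. Over the 11 peaks paired with 1 gene, 2 were up and 0 down in erCriz0, beside 8.68% and 6.91%. In erAlec0, 1 was up and 1 down, beside 17.0% and 11.4%. In erLor0, 2 were up and 1 down, beside 7.96% and 11.7%. Relative to other peaks within 5 Mb, 5, 2 and 11 were up in erCriz0, erAlec0 and erLor0, beside 6.66%, 12.5% and 6.96%. In the same setting, 7, 18 and 11 were down, beside 4.90%, 8.88% and 7.50%. After quantile normalization, 21 were down in erAlec0 and 10 in erLor0, beside 11.5% and 8.00%. Up in these lines were 1 and 9, beside 13.0% and 7.87%. In erLor0, 2 of the 90 peaks that reach the log2 of 15 reads were down, beside 9.04%. The cause of these shifts was not tested beyond the smaller number of peaks that the distance, single-gene and read limits leave. The counts between resistant lines were unchanged by centring or quantile normalization.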

Other observations

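Among the upstream regulators, FOXO3, which activates BCL2L11 and BBC3, was chosen for mention after its values had been seen. Its RNA was 10.30 in naive cells and 11.24, 9.87 and 9.84 in erCriz0, erAlec0 and erLor0. It was higher than naive in erCriz0 and lower in the other lines. In the same order of lines, BCL2L11 changed by 0.53, -0.89 and -0.08 and BBC3 by -0.62, 0.48 and 0.05. A link of either gene to FOXO3 was not tested.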
